A study of Homo sapiens with 9 samples.

Results

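The expression of 10 genes of the Notch pathway was followed in UPCI-SCC-040, an oral squamous cell carcinoma line of tongue origin, before and after exposure to transforming growth factor beta 1 (TGF-β1). The genes were taken by symbol from GENCODE release 29, out of 58233 gene identifiers in the count tables. They comprised 3 receptors (NOTCH1, NOTCH2, NOTCH3), 3 ligands (JAG1, JAG2, DLL1) and 4 transcription factor genes of the HES and HEY families (HES1, HES4, HES5, HEY1). All 10 passed the filter on low counts that left 15440 genes for testing.

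RNA-seq was run on total RNA of 9 samples, 3 controls without TGF-β1, 3 samples exposed to 5 ng/ml TGF-β1 during 48 h and 3 exposed to that dose during 72 h. Replicates 1, 2 and 3 of every group came from passages 12, 13 and 8. TGF-β1 was given in medium that lacked serum and antibiotics, while the routine growth medium contained both. The controls carry a time of 0 h in their titles and are not described as serum-free, so the cytokine, the loss of serum and the time in culture cannot be told apart in any comparison with control. All cells were of 1 line with no engineered allele. Only the passage marks the replicates as separate, so p-values weigh group differences against the spread between these samples of 1 line. The main model did not pair libraries by passage.

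Notch receptors are single-pass membrane proteins that are glycosylated on their way to the surface and bind Jagged or Delta-like ligands on neighbouring cells. Ligand binding exposes a site for ADAM proteases, after which the gamma-secretase complex releases the intracellular domain. That domain enters the nucleus, joins the DNA-binding protein RBPJ and a Mastermind co-activator, and switches on genes such as those of the HES and HEY repressors. In stratified squamous epithelium, including that of the mouth, Notch signalling is known for its part in the exit of keratinocytes from the basal layer.

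Library totals ran from 12544690 to 20438727 counts. SMAD7, TGFBI and SKIL, TGF-β1 response genes listed as a check, were higher at both times. Summed markers of squamous epithelium lay between 10010 and 18490 CPM (counts scaled to library size) in controls, between 21160 and 26940 CPM at 48 h and between 14260 and 20850 CPM at 72 h. KRT5 and KRT14, the most abundant of these 8 squamous markers, weigh most in the sums. Single markers differed, as KRT14 and DSG3 lay higher in every treated library than in any control, and EPCAM lay lower. Summed fibroblast markers stayed at or below 0.989 CPM and immune markers at or below 0.287 CPM in every library. Endothelial markers summed to 0.121 to 0.215 CPM in controls and 0.399 to 2.66 CPM at 72 h. One library differed from the rest, 72 h replicate 3, where the nuclear RNA MALAT1 had 1.54% of the counts against 0.409% and 0.437% in its group, and values without it are given beside the results below that it moved. Without it the 72 h log2 fold changes of the 10 genes included -1.11 for HES1 (edgeR, adjusted p = 0.00291), -0.69 for DLL1 (adjusted p = 0.0237), 0.33 for NOTCH2 (adjusted p = 0.217), 0.23 for JAG2 (adjusted p = 0.348), -0.63 for HES4 (adjusted p = 0.141) and 1.48 for HES5 (adjusted p = 0.063).

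The upstream sequences of the HES genes are shown first because these genes read the signal at RBPJ sites. HES1 and HES5 moved in opposite directions below, and whether the motifs bear on that was not tested. RefSeq promoter windows (GRCh38.p14) were at hand for 8 of the 10 genes, all except DLL1 and HEY1. The 250 bases before the start site were searched on both strands for the RBPJ-type motif GTGGGAA and a variant, GTGTGAA, which cannot overlap each other as written. The motif GTGGGAA or its reverse TTCCCAC occurred in 1906 of 35116 windows (5.43%), and GTGTGAA or its reverse TTCACAC in 872 (2.48%). HES1, HES4 and HES5 held the first motif, and neither was found in the windows of NOTCH1, NOTCH2, NOTCH3, JAG1 and JAG2. The 30 bases that begin at the motif on the gene strand are aligned here, with motif letters in capitals, to show which of the 3 genes carries an opposed second motif.
HES1 site: GTGGGAAagaaagtttgggaagtTTCACAC
HES4 site: GTGGGAAagaatgcggagccgggTTCACAC
HES5 site: GTGGGAAcggccgcggcgcccggactccag

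The HES1 stretch lies at chr3:194136063-194136092 on the plus strand, 85 to 56 bases before the start site. The HES4 stretch lies at chr1:1000145-1000174 on the minus strand, 77 to 48 bases before the RefSeq start site. GENCODE release 29 begins the gene further upstream, at base 1000172, so by that start nearly the whole stretch lies inside the gene. In both, GTGGGAA was followed after 16 bases by TTCACAC. That head-to-head pair, in either order of its motifs, was present in 2 of the 35116 windows (0.0057%), those of HES1 and HES4. Its spacing was taken from these sequences, so the share describes the match and tests nothing. The HES5 stretch, at chr1:2530315-2530344 on the minus strand, held GTGGGAA without the opposed motif.

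The longer windows of HES1 and HES5 follow because these are the HES genes whose transcripts passed the test. HES1 upstream is chr3:194135898-194136143 on the plus strand, and HES5 upstream is chr1:2530264-2530513 on the minus strand, with the same motifs in capitals. HES5 carried a second copy of the motif on the other strand, 224 bases before its start. A match describes letters in the sequence and is not evidence that RBPJ was bound there.
HES1 upstream: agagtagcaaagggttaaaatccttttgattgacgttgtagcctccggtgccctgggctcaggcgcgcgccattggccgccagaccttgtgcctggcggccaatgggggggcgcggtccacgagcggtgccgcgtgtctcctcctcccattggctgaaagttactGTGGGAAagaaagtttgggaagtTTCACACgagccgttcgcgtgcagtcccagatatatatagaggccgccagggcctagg
HES5 upstream: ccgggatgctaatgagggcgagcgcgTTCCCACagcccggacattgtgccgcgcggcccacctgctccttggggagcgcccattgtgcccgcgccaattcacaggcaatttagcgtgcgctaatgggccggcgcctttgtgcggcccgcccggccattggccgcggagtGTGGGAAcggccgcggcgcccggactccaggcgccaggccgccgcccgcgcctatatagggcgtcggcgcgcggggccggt

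**Figure D1:**
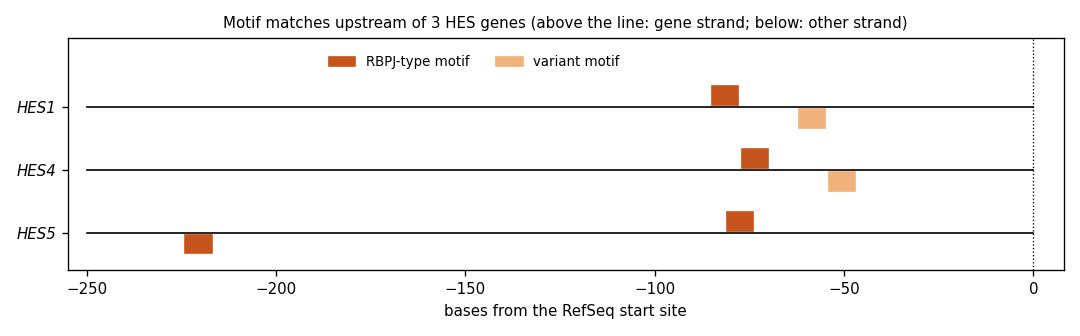
Positions of the RBPJ-type motif (dark) and its variant (light) in the 250 bases before the RefSeq start sites of HES1, HES4 and HES5, with boxes above the line on the gene strand and below it on the other strand. HES1 and HES4 share the opposed pair at 85 and 62 and at 77 and 54 bases before the start, while HES5 has the first motif at 81 and at 224 bases.

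TGF-β1 exposure was followed by a higher transcript level of the ligand gene JAG1 and the repressor gene HES5 at 48 h, and by a lower level of the repressor gene HES1 at both times. The ligand gene DLL1 was lower at 72 h. By the quasi-likelihood F test of edgeR, adjusted after Benjamini and Hochberg over all tested genes, 3 of the 10 genes passed 0.05 at 48 h (2 higher, 1 lower), against 31.0% of all tested genes (14.9% higher and 16.0% lower). At 72 h, 2 of 10 passed, both lower, against 39.8% of all tested genes (20.4% higher and 19.4% lower). Single libraries moved the counts, to 1 at 48 h without control replicate 1, control replicate 2 or 48 h replicate 1, and to 1 at 72 h without control replicate 2 or 3. Read against those shares, the counts say nothing particular about the Notch genes as a set. The median log2 fold change of the 10 was 0.21 at 48 h and 0.10 at 72 h, beside 0.00 and 0.03 for all tested genes. In a bulk measurement a change in RNA per cell and a change in the share of cells that express a gene cannot be told apart.

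**Figure D2:**
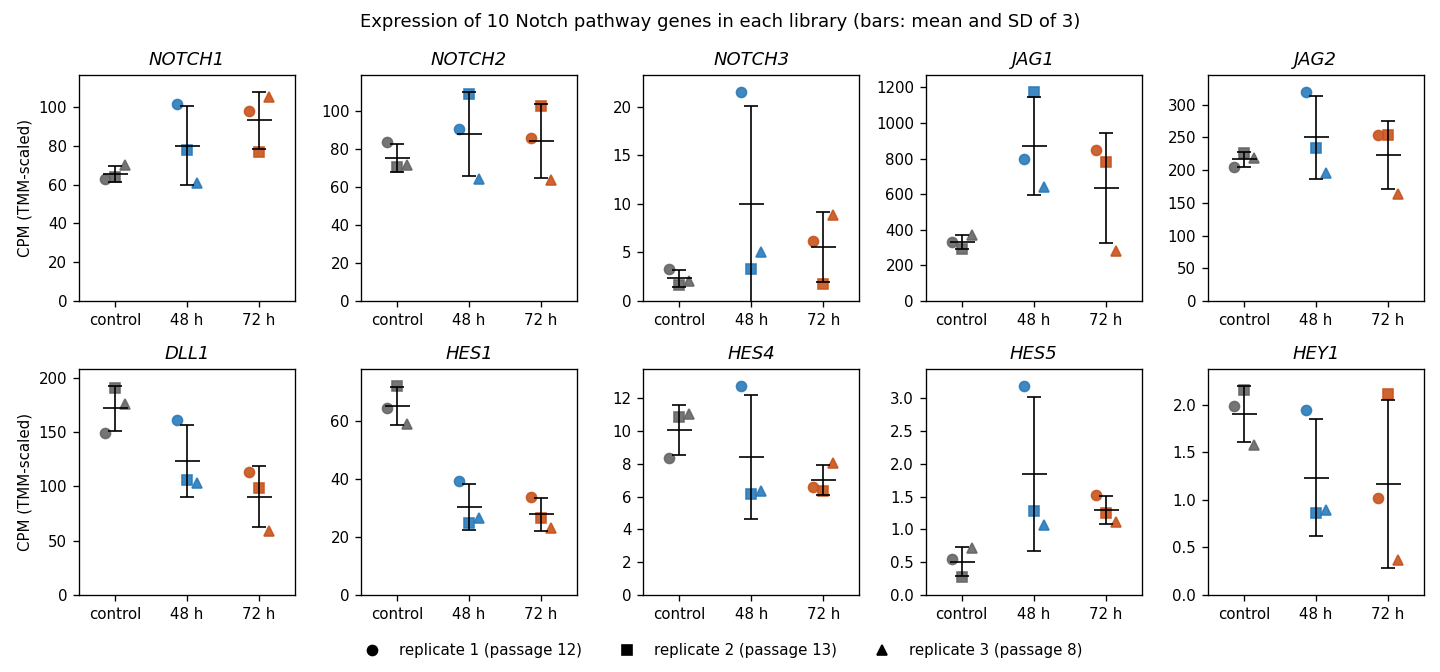
TMM-scaled CPM (vertical axes, each from 0) of the 10 genes in the 9 libraries, with 1 point per library shaped by replicate and a bar for the mean and SD of 3 libraries. HES1 lies lower in all 6 treated libraries than in any control, and JAG1 lies higher in 5 of 6. The lower SD bar of NOTCH3 at 48 h is cut at 0.

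Levels between genes were compared per kilobase of exon, with all annotated exons of a gene joined (9298 bases for JAG1 and 3226 for DLL1). The transcripts expressed may be shorter, so the order of the genes depends on this length. In controls DLL1 stood highest at 53.3 ± 6.49 CPM per kb (SD, n = 3), above JAG1 in every library. JAG1 at 35.7 ± 4.41, JAG2 at 33.8 ± 1.80 and HES1 at 31.7 ± 3.20 CPM per kb followed, and each overlapped its neighbour in that order. HES4 at 9.0, NOTCH1 at 6.32 and NOTCH2 at 4.49 CPM per kb were each separated from the next by all libraries. HEY1 at 0.589, HES5 at 0.390 and NOTCH3 at 0.249 CPM per kb were the 3 lowest and overlapped their neighbours. The line therefore carried NOTCH1 and NOTCH2 as its main receptor transcripts and all 3 ligand transcripts at several times their level per kb.

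The order of the ligands per kb of exon changed with exposure. JAG1 headed all 10 genes at 48 h, with 93.7 ± 29.6 CPM per kb against 39.1 ± 9.93 for JAG2 and 38.3 ± 10.2 for DLL1, and was above both in every library. At 72 h it had the highest mean again, 68.5 ± 33.2 CPM per kb, with libraries that overlapped those of JAG2 at 35.0 ± 8.09. The ratio of JAG1 to DLL1 per kb within a library was 0.769, 0.529 and 0.736 in controls, 1.72, 3.84 and 2.16 at 48 h, and 2.59, 2.73 and 1.66 at 72 h. DLL1 thus exceeded JAG1 per kb in each control, and JAG1 exceeded DLL1 in each treated library. In CPM, not divided by length, JAG1 was above DLL1 in every library, with control means of 332 and 172 CPM. The ratio per kb was chosen after the values were seen and is given as a description.

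Among the receptors, NOTCH1 (ENSG00000148400, chr9:136494433-136545786, minus strand) measured 62.8, 63.8 and 70.1 CPM in control replicates 1, 2 and 3. It measured 102, 78.2 and 60.8 CPM at 48 h and 97.9, 76.7 and 105 CPM at 72 h. The 48 h libraries overlapped the controls, and the 72 h libraries all lay above them. The log2 fold change was 0.29 ± 0.19 at 48 h (approximate SE; adjusted p = 0.261) and 0.51 ± 0.19 at 72 h (adjusted p = 0.0548), neither past the threshold. At 72 h the call was made in 5 of 16 alternative fits, DESeq2 (adjusted p = 0.0461) among them, over a range of 0.017 to 0.191. Without the library of 72 h replicate 3 the value was 0.42 (adjusted p = 0.121).

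NOTCH2 (ENSG00000134250, chr1:119911553-120069626, minus strand) ranged from 70.7 to 84.0 CPM in controls, from 64.5 to 109 CPM at 48 h and from 63.8 to 103 CPM at 72 h. All 3 ranges overlapped, and the log2 fold changes were 0.22 ± 0.21 at 48 h (adjusted p = 0.464) and 0.16 ± 0.21 at 72 h (adjusted p = 0.58) in edgeR. NOTCH2NLA, a close paralog of NOTCH2, received 1 to 9 counts a library, or 0.0968% to 0.798% of the NOTCH2 count. How reads that fit both were treated is not given in the sources used here.

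NOTCH3 (ENSG00000074181, chr19:15159038-15200981, minus strand), the receptor best known from vascular smooth muscle, was near silent in controls at 3.32, 1.61 and 2.08 CPM. It measured 21.6, 3.31 and 5.05 CPM at 48 h and 6.14, 1.71 and 8.90 CPM at 72 h. One library of passage 12 was far above the rest at 48 h, and at both times the lowest treated library overlapped the controls. The edgeR log2 fold changes were 2.11 ± 0.81 at 48 h (adjusted p = 0.0788) and 1.25 ± 0.81 at 72 h (adjusted p = 0.242). With the replicate number as a block, the 48 h value was 1.82 and passed (adjusted p = 0.0381), as it did with DESeq2 (adjusted p = 0.00872). Relative to the control of its own passage, NOTCH3 was higher in all 6 treated libraries, by ratios of 1.06 to 6.51. Without the 48 h library of replicate 1 its log2 fold change was 0.83 (adjusted p = 0.369), and that of the 72 h comparison without the 72 h library of replicate 3 was 0.76 (adjusted p = 0.552).

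None of the 3 receptor genes was thus called by edgeR at either time. At an unadjusted p under 0.05 there was 1 at 48 h (NOTCH3) and 1 at 72 h (NOTCH1), and DESeq2 called the same genes at the same times. Over all 15440 tested genes 6690 had such a p at 48 h and 7680 at 72 h, so 1 receptor gene of 3 is no more than that background.

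The ligand gene JAG1 (ENSG00000101384, chr20:10637684-10673999, minus strand) encodes Jagged 1, which binds Notch receptors on adjacent cells. Controls measured 331, 291 and 373 CPM, 48 h libraries 797, 1176 and 642 CPM, and 72 h libraries 848, 779 and 283 CPM. Every 48 h library lay above every control, whereas at 72 h replicates 1 and 2 were above and replicate 3 was below all controls. The group means were 332 ± 41.0, 872 ± 275 and 637 ± 308 CPM (SD, n = 3 each). JAG1 rose at 48 h by a log2 fold change of 1.39 ± 0.39 (edgeR, adjusted p = 0.0239), a 2.63-fold difference, and at 72 h the value was 0.94 ± 0.38 (adjusted p = 0.077).

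The JAG1 result depended on single libraries. The 48 h call was lost when any 1 control was left out (adjusted p = 0.0604 to 0.0893), without the 48 h library of replicate 1 (adjusted p = 0.0568) or of replicate 2 (adjusted p = 0.0731), and without a filter on low counts (adjusted p = 0.0768). It was also lost without all libraries of replicate 1 (adjusted p = 0.146) or of replicate 2 (adjusted p = 0.203). Its log2 fold change stayed between 1.05 and 1.67 in the fits that left samples out. Without the library of 72 h replicate 3, whose MALAT1 share was high, JAG1 was called at 72 h too, at 1.30 (adjusted p = 0.00203), and DESeq2 called it at 72 h with all libraries kept (0.95, adjusted p = 0.0321). Within passages, the ratio of JAG1 CPM to the control was 2.41 and 2.56 (48 h and 72 h) in passage 12 and 4.04 and 2.68 in passage 13. In passage 8 it was 1.72 and 0.758, the lowest at each time. JAG1 shares 79 exon bases with an antisense gene, AL050403.2, which held 0 to 3 counts a library.

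**Figure D3:**
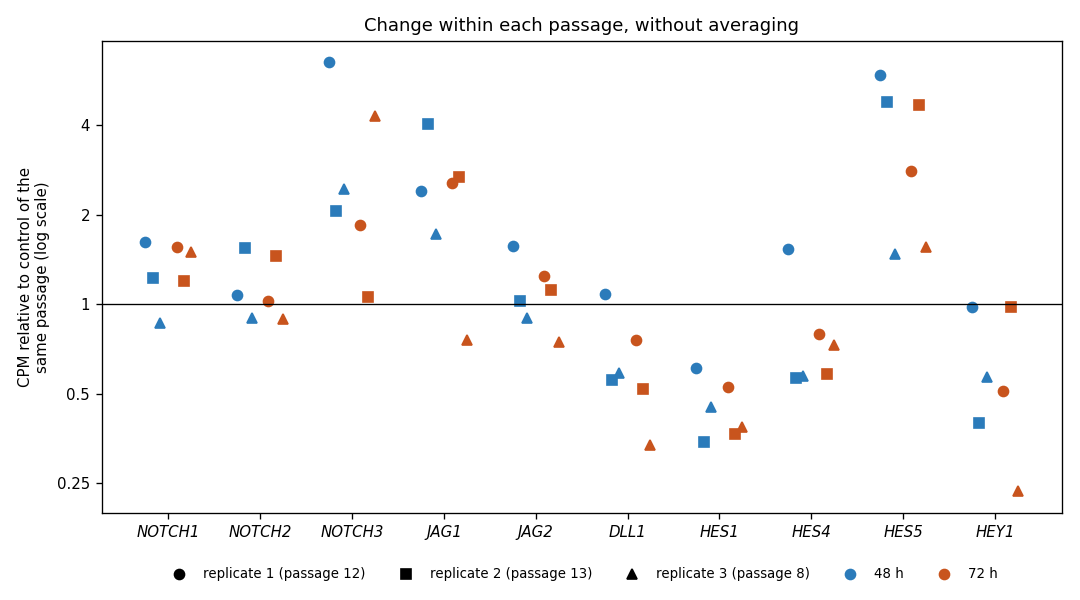
CPM of each gene in the 48 h and 72 h libraries divided by the CPM of the control from the same passage, on a log axis, with 1 point per treated library and the line at 1 for no difference. All 6 HES1 ratios lie under 1 (0.344 to 0.611) and all 6 HES5 ratios above 1 (1.48 to 5.88), while JAG1 runs from 0.758 to 4.04.

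DLL1 (ENSG00000198719, chr6:170282206-170306565, minus strand), the Delta-like 1 ligand, went the other way. Controls measured 149, 191 and 176 CPM, 48 h libraries 161, 106 and 103 CPM, and 72 h libraries 114, 98.9 and 59.1 CPM. The 48 h group overlapped the controls through its passage 12 library, and every 72 h library lay under every control. DLL1 fell at 72 h by 0.93 ± 0.25 on the log2 scale (edgeR, adjusted p = 0.0173), to 0.526 times the control level. At 48 h its log2 fold change was -0.48 ± 0.25 (adjusted p = 0.176). The 72 h call was lost without control replicate 2 (adjusted p = 0.0633), without control replicate 3 (adjusted p = 0.0502), and without all libraries of replicate 2 or replicate 3 (adjusted p = 0.122 and 0.0544).

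JAG2 (ENSG00000184916, chr14:105140981-105168824, minus strand), the second Jagged ligand, measured 204 to 227 CPM in controls, 196 to 320 CPM at 48 h and 164 to 254 CPM at 72 h. The ranges overlapped and the log2 fold changes were 0.21 ± 0.21 (adjusted p = 0.493) and 0.05 ± 0.21 (adjusted p = 0.879) in edgeR. Their sign turned in some of the fits without 1 sample, with a range of -0.09 to 0.24 at 72 h. A same-strand transcript, AL512356.1, shares 469 exon bases with JAG2 and held 0 counts in each library, so reads in the shared part may have been dropped as ambiguous.

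Among the nuclear targets, HES1 (ENSG00000114315, chr3:194136145-194138732, plus strand), a basic helix-loop-helix repressor and the most widely used readout of Notch activity in many cell types, was lower throughout. It measured 64.7, 72.3 and 59.2 CPM in controls, 39.5, 24.9 and 26.7 CPM at 48 h, and 34.0, 26.6 and 23.0 CPM at 72 h. No treated library reached the lowest control at either time. HES1 fell by 1.10 ± 0.20 on the log2 scale at 48 h (edgeR, adjusted p = 0.00432) and by 1.23 ± 0.20 at 72 h (adjusted p = 0.00187), to 0.465 and 0.426 times the control level. The 72 h call held in all 16 alternative fits, and the 48 h call in 15, with the exception of the fit without replicate 2 (adjusted p = 0.0869). Within passages its ratios to control were 0.611 and 0.526 in passage 12, 0.344 and 0.368 in passage 13, and 0.452 and 0.388 in passage 8.

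HES5 (ENSG00000197921, chr1:2528745-2530245, minus strand), a HES repressor best known from neural progenitors, was scarce and moved upward. Its raw counts were 9, 5 and 10 in controls, 64, 21 and 13 at 48 h, and 27, 22 and 18 at 72 h. As CPM these were 0.543, 0.268 and 0.717, then 3.19, 1.29 and 1.06, then 1.52, 1.25 and 1.11. All treated libraries lay above all controls, although the counts limit the precision of every fold. HES5 rose at 48 h by a log2 fold change of 1.90 ± 0.51 (edgeR, adjusted p = 0.0195), and the 72 h value was 1.37 ± 0.52 (adjusted p = 0.0583). With the replicate block the 72 h value of 1.39 passed (adjusted p = 0.0365). It also passed with DESeq2 (adjusted p = 0.0465), without a low-count filter (adjusted p = 0.0208) and in the fit of only the 2 groups (adjusted p = 0.0322). The 48 h call was lost without control replicate 1 (adjusted p = 0.0593) or 2 (adjusted p = 0.0806), and without 48 h replicate 1 (adjusted p = 0.0863), where the log2 fold change was 1.23. It was also lost without all libraries of replicate 1 (adjusted p = 0.197) or of replicate 2 (adjusted p = 0.107). Even at its highest, HES5 stood at 1.41 ± 0.897 CPM per kb against 14.7 ± 3.86 for HES1 in the same 48 h libraries.

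HES4 (ENSG00000188290, chr1:998962-1000172, minus strand), a HES relative that mice lack, measured 8.32, 10.8 and 11 CPM in controls. It measured 12.8, 6.13 and 6.36 CPM at 48 h and 6.60, 6.32 and 8.03 CPM at 72 h. The passage 12 library was the highest of all at 48 h while the other 2 lay under every control, and at 72 h the whole group lay under the controls. The log2 fold changes were -0.25 ± 0.29 at 48 h (adjusted p = 0.539) and -0.53 ± 0.29 at 72 h (adjusted p = 0.169), so no change passed the edgeR test. HES4 and HES1 carry the same opposed motif pair and differed in whether they passed, and the difference between the 2 genes was not tested.

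HEY1 (ENSG00000164683), a repressor of the related HEY family, was scarce at 33, 40 and 22 counts in controls, 39, 14 and 11 at 48 h, and 18, 37 and 6 at 72 h. The groups overlapped at both times, and the log2 fold changes were -0.60 ± 0.54 (adjusted p = 0.421) and -0.70 ± 0.54 (adjusted p = 0.318) in edgeR. With samples left out they ran from -1.12 to -0.27 at 48 h and from -1.43 to -0.29 at 72 h, the last of these without 72 h replicate 3 (adjusted p = 0.632). Each treated library had a CPM under that of its own passage control, by ratios of 0.235 to 0.982.

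**Figure D4:**
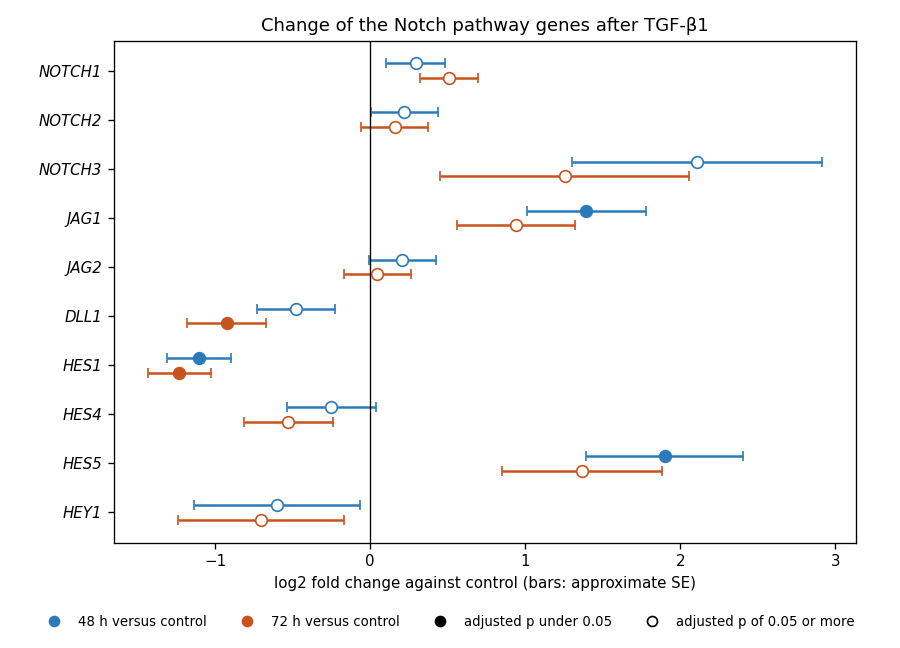
Log2 fold changes against control (horizontal axis) of the 10 genes at 48 h and 72 h with approximate SE bars, where filled points have an adjusted p under 0.05 in edgeR. JAG1 and HES5 are filled to the right at 48 h, HES1 is filled to the left at both times, and DLL1 is filled to the left at 72 h.

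The comparison of 72 h with 48 h asked whether any of these genes went on changing. In edgeR 0 of the 10 genes passed, against 0% of all tested genes. At an unadjusted p under 0.05 there were 0 of the 10 and 1382 of all 15440 tested genes, and DESeq2 called 0 of the 10 and 50 of all genes. The largest values were -0.85 ± 0.76 for NOTCH3 (adjusted p = 0.732), -0.53 ± 0.46 for HES5 (adjusted p = 0.719) and -0.45 ± 0.38 for JAG1 (adjusted p = 0.713). DLL1 had the smallest adjusted p, 0.603, at -0.45 ± 0.25, with 72 h libraries that overlapped those of 48 h. The calls that differ between the times, such as that of DLL1, are therefore not shown to be differences between the times.

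The genes most alike in pattern were found by the Pearson correlation of log2 CPM over the 9 libraries, for the receptor, ligand and HES gene with the highest level per kb. ZBTB7A (r = 0.974), PEPD (0.967) and SLC12A9 (0.953) were most like NOTCH1. BACE1 (r = 0.979), PTPN9 (0.970) and TBC1D16 (0.967) were most like JAG1, and BSPRY (r = 0.983) and AAR2 (0.980) were among those most like HES1. The 9 points share library depth and the contrast of treated with control, so the values describe likeness only.

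Other genes were taken from lists by role, 68 genes in all, of which 60 had enough counts to be tested. Besides genes of the pathway itself, the lists held 5 other Notch targets and 5 suprabasal keratinocyte genes. All 68 are counted as other pathway genes here. At 48 h 15 of the 60 passed (11 higher, 4 lower), and at 72 h 22 passed (15 higher, 7 lower), with median log2 fold changes of 0.18 and 0.17. Without control replicate 1 the counts were 9 and 14. Genes that mature or cut the receptors made up 7 of the 11 and 10 of the 15 higher genes, and the nuclear partners were mainly genes that did not pass. With 31.0% and 39.8% of all tested genes called, these counts are read as descriptions.

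Receptor cleavage, the step that precedes HES transcription, had 3 of 8 genes higher at 48 h and 6 of 8 higher at 72 h. At either time 0 were lower (0 lower by DESeq2 as well). Of all tested genes, 14.9% were higher and 16.0% lower at 48 h, and 20.4% were higher and 19.4% lower at 72 h. With 8 genes and no set test, the counts describe this list only. APH1B, a subunit of gamma-secretase, measured 6.51, 6.77 and 6.52 CPM in controls, 14.9, 14.1 and 14.8 CPM at 48 h, and 14.7, 20.1 and 21.6 CPM at 72 h, with no overlap. Its log2 fold changes were 1.15 ± 0.17 (edgeR, adjusted p = 0.00184) and 1.51 ± 0.17 (adjusted p = 0.000456). NCSTN, the gamma-secretase subunit nicastrin that receives the substrate, rose from 34.4 ± 2.63 CPM to 51.4 ± 3.72 and 59.6 ± 6.67 CPM (adjusted p = 0.00821 and 0.0015). The call at 48 h was lost for NCSTN in 2 of 16 alternative fits.

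Glycosylation and maturation genes passed in 5 of 7 at 48 h (4 higher, 1 lower) and in 6 of 7 at 72 h (4 higher, 2 lower). EOGT and POGLUT1, which add N-acetylglucosamine and glucose to the epidermal growth factor-like repeats of the receptors, were higher by 0.77 ± 0.14 and 0.67 ± 0.17 at 48 h (edgeR, adjusted p = 0.00362 and 0.0164). At 72 h they were higher by 0.80 ± 0.14 and 0.81 ± 0.17 (adjusted p = 0.00219 and 0.0055). POFUT1, the O-fucosyltransferase that acts on the same repeats, was lower at both times, at -0.61 ± 0.14 and -0.41 ± 0.14 (adjusted p = 0.0117 and 0.0449), and lost its 48 h call in 3 and its 72 h call in 12 of 16 alternative fits. Without 72 h replicate 3 the 72 h value of POFUT1 was -0.27 (edgeR, adjusted p = 0.105). POFUT1 was named after its values were seen. The POGLUT1 call at 48 h was lost in 6 of 16 alternative fits. Without all libraries of replicate 1 the EOGT call at 48 h (adjusted p = 0.0547) and the POGLUT1 call at 72 h (adjusted p = 0.0538) were lost as well.

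Endocytosis and turnover genes passed in 4 of 11 at 48 h (3 higher, 1 lower) and in 5 of 11 at 72 h (3 higher, 2 lower). MIB2, a ubiquitin ligase of the family that drives ligand endocytosis, measured 46.0 ± 4.76 CPM before exposure, 80.6 ± 13.5 CPM at 48 h and 108 ± 7.48 CPM at 72 h, a rise at both times (log2 fold changes 0.81 ± 0.14 and 1.23 ± 0.15, adjusted p = 0.00372 and 0.000507). DTX3, a Deltex family gene, was higher by 0.83 ± 0.25 and 1.13 ± 0.25 (adjusted p = 0.0312 and 0.00682), and its 48 h call was lost in 8 of 16 alternative fits. Without all libraries of replicate 1 the MIB2 call at 48 h was lost (0.58, adjusted p = 0.0697), as was the DTX3 call at 72 h (adjusted p = 0.0762).

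Of 9 nuclear activators, 1 passed at each time, SNW1, a co-factor of RBPJ complexes and of splicing, with log2 fold changes of -0.40 ± 0.11 (edgeR, adjusted p = 0.0251) and -0.42 ± 0.11 (adjusted p = 0.015). Its calls were lost in 8 of 16 alternative fits at 48 h and in 5 of 16 at 72 h. RBPJ itself, named after its values were seen, measured 98.4, 114 and 99.3 CPM in controls, 93.9, 99.1 and 120 CPM at 48 h, and 88.6, 106 and 95.6 CPM at 72 h. These overlapped throughout, with log2 fold changes of 0.01 ± 0.13 (adjusted p = 0.971) and -0.10 ± 0.13 (adjusted p = 0.555). Of 10 corepressors, TLE1 was lower at both times and SPEN at 72 h. The SPEN value was -0.54 ± 0.18 (edgeR, adjusted p = 0.0328), and its groups overlapped, with a 72 h library at 79.8 CPM and a control at 78.3 CPM. TLE1, a Groucho family corepressor that HES proteins recruit, measured 132, 141 and 146 CPM in controls, 70.5, 63.3 and 56.2 CPM at 48 h, and 69.6, 49.5 and 54.0 CPM at 72 h. The controls lay above all treated libraries, and TLE1 fell by 1.14 ± 0.15 (edgeR, adjusted p = 0.00112) and by 1.27 ± 0.15 (adjusted p = 0.000492) on the log2 scale.

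**Figure D5:**
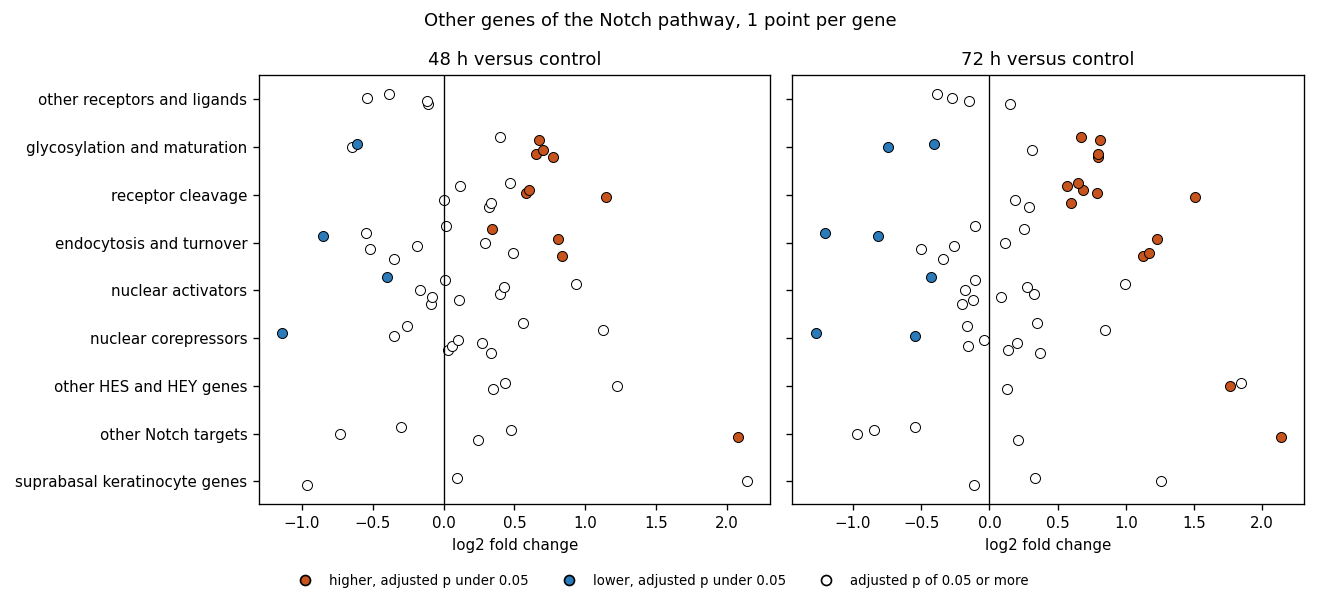
Log2 fold changes (horizontal axes) of the 60 tested genes of the other lists, target and suprabasal keratinocyte genes included, grouped by role. Each list has 1 point per gene, with colour for genes with an adjusted p under 0.05 in edgeR. Receptor cleavage shows 3 coloured points at 48 h and 6 at 72 h, all to the right, and the nuclear lists show coloured points only to the left.

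Target genes outside the 10 gave a mixed picture. CDKN1A, the p21 cell cycle inhibitor, which Notch and TGF-β1 are both known to induce in keratinocytes, measured 91.8, 80.7 and 91.7 CPM in controls, 420, 414 and 279 CPM at 48 h, and 429, 377 and 355 CPM at 72 h. It rose by 2.07 ± 0.18 and 2.14 ± 0.18 on the log2 scale (edgeR, adjusted p = 0.000318 and 0.000184), and was the 1 gene of 5 other targets to pass at each time. Of the other HES and HEY genes, HES6 was higher at 72 h by 1.76 ± 0.42 (adjusted p = 0.00937) and at 48 h had 1.23 ± 0.42 (adjusted p = 0.0509), a value that the replicate block (1.22, adjusted p = 0.0242) and DESeq2 (adjusted p = 0.0125) both called. HES6, named after its values were seen, had 1 high library at 72 h, replicate 3 at 19.2 CPM against 6.60 and 6.10 CPM, and without it the log2 fold change was 1.03 (adjusted p = 0.00485). Its 72 h call was lost without all libraries of replicate 1 (1.92, adjusted p = 0.0521). HES2 had the highest mean CPM of that list, with edgeR log2 fold changes of 0.35 ± 0.48 (adjusted p = 0.608) and 0.13 ± 0.48 (adjusted p = 0.848). Per kb of exon HES6 stood higher, at a mean of 3.45 CPM per kb over all libraries against 2.29 for HES2.

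No other receptor or ligand gene passed in edgeR or DESeq2, out of 4 tested, and 0 had an unadjusted p under 0.05. DLK2, a non-canonical ligand and the most abundant of them, ranged between 41.4 and 46.2 CPM in controls, between 19.6 and 58.8 CPM at 48 h and between 15.4 and 82.0 CPM at 72 h. Both lowest values came from passage 8, and without 72 h replicate 3 the log2 fold change at 72 h was 0.58 (adjusted p = 0.287), against 0.15 with it. Of the suprabasal keratinocyte genes, 0 of 3 passed in edgeR at either time. At an unadjusted p under 0.05 there was 1 at 48 h, KRT1, which DESeq2 called higher. KRT1 measured 1.29 ± 1.03 CPM in controls, 5.70 ± 4.88 at 48 h and 3.12 ± 2.26 at 72 h, with overlap. Its log2 fold changes were 2.14 ± 0.93 (edgeR, adjusted p = 0.112) and 1.26 ± 0.93 (adjusted p = 0.308). KRT10, a keratin of differentiating layers, measured 18.6 ± 3.00 CPM in controls, 19.8 ± 4.30 at 48 h and 23.5 ± 1.92 at 72 h (adjusted p = 0.726 and 0.165). The other 2 listed genes, KRT4 and KRT13, keratins of the oral suprabasal layers, had too few counts to be tested and are named after their values were seen. KRT4 had 16, 19 and 3 counts in controls, 4, 0 and 0 at 48 h and 0, 1 and 0 at 72 h, and KRT13 had 51, 19 and 4, then 2, 3 and 2, then 3, 2 and 0. The CPM of both genes lay lower in every treated library than in any control, but by little and near the floor. For KRT4 the lowest control had 0.215 CPM and the highest 48 h library 0.199 CPM, and the raw counts of these 2 libraries, 3 and 4, went the other way. For KRT13 these values were 0.287 and 0.184 CPM. The share of all genes so separated was not counted, and no fold or test is given at these counts.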

How the data were processed

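Gene counts were deposited for 9 libraries of UPCI-SCC-040. Per the labels, the RNeasy kit gave the RNA and the NEBNext Ultra kit the libraries. Tools named in the submitters' processing notes are STAR 2.5.2a and featureCounts 1.5.0-p1, with FastQC 0.11.5, bcl2fastq 2.17.1.14 and build hg38. The deposited values are a raw count per gene. Their annotation release, strand setting and rule for multi-mapping reads were not given in the sources used here. Symbols and coordinates came from GENCODE release 29 (GRCh38), which held 57895 of 58233 identifiers.

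Counts were tested with edgeR 4.0.16 under R 4.3.3 (TMM scaling, filterByExpr, robust quasi-likelihood F test, 1 model of 3 groups with 6 residual degrees of freedom), with Benjamini-Hochberg adjustment over 15440 genes within each comparison at 0.05. CPM used TMM-scaled library sizes, and approximate standard errors divide the absolute log2 fold change by the root of F. No library was a copy of another.

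The 10 genes and all lists were chosen with earlier results of these data known. Named outside the 10 were, per list, up to 2 genes past the threshold at both times with the largest mean change. Where none passed, the gene with the highest mean CPM was named. The 3 genes most correlated with the receptor, ligand and HES or HEY gene of highest level per kb were added. Some listed genes and 1 of those most like HES1 are not reported here. Alternatives were a DESeq2 1.42.0 fit, edgeR with DESeq2 size factors or with upper-quartile factors, no filter, a filter of 1 CPM in 3 libraries, a replicate block, only the 2 groups compared, and each library or replicate number left out. For the named pathway genes these were chosen after seeing the data. Same-numbered libraries share a passage per the labels, and their deviations from group means correlated at -0.0253 to 0.493.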

Additional observations from a re-analysis of the deposited data

How the results depend on the processing

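Among the 10 genes the direction against control held in every alternative that kept all libraries of the groups compared, and it turned in fits that left samples out for JAG2 and HES4 at 48 h and for JAG2 and NOTCH2 at 72 h, none of which was called. With 1 library or replicate number left out, the called genes of the 10 ran from 0 to 3 at 48 h and from 1 to 3 at 72 h, the other pathway genes from 3 to 16 and from 10 to 24, and all genes from 765 to 4599 and from 2602 to 6004. These fits have fewer samples. At 48 h 26 other pathway genes were called in the fit of only the 2 groups. At 72 h DESeq2 called 5 of the 10, and no low-count filter and the fit of only the 2 groups called 4 each. All genes called between 72 h and 48 h were 50 with DESeq2 and 211 without the filter. The cause was not tested. The replicate block called 4 and 3 of the 10 at 48 h and 72 h, 18 and 23 other pathway genes, and 5113 and 6465 genes in all. Beside the NOTCH3, HES5 and HES6 values given above, the block changed no other call of the 10 genes, the pathway genes named by rule, POFUT1 or RBPJ. The block values of SPEN and KRT1 were not examined. With the block, DLK2 at 72 h turned to -0.16. Ranges of log2 fold changes that crossed 0 when samples were left out were, at 48 h, -0.051 to 0.36 for JAG2, -0.81 to 0.016 for HES4, -0.13 to 0.13 for RBPJ, -0.13 to 0.30 for KRT10, -0.44 to 0.69 for HES2 and -0.47 to 0.26 for DLK2. At 72 h they were -0.055 to 0.33 for NOTCH2, -0.093 to 0.24 for JAG2, -0.10 to 0.42 for HES2 and -0.44 to 0.62 for DLK2. Between 72 h and 48 h they were -0.044 to 0.42 for NOTCH1, -0.25 to 0.12 for NOTCH2, -1.67 to 0.42 for NOTCH3, -0.33 to 0.058 for JAG2, -0.30 to 0.11 for HES1, -0.55 to 0.20 for HES4, -0.79 to 0.14 for HES5 and -1.07 to 0.51 for HEY1. Upper-quartile scaling moved the median of all genes to 0.05 at 48 h and 0.08 at 72 h. HES5 and HEY1 had under 100 counts per group, which limits their precision.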
